A study of Mus musculus with 24 samples.

Results

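Transcripts of 10 histone lysine demethylases were followed in mouse cleavage-stage embryos with and without knockdown (KD) of the endogenous retrovirus MERVL. The members were taken by name from the gene rows of the count files, 10 of 55291 genes, and all 10 were found in all 12 RNA libraries. They are Kdm1a, Kdm1b, Kdm2b, Kdm4a, Kdm4b, Kdm4c, Kdm4d, Kdm5a, Kdm5b and Kdm6b. The zygotes came from B6D2F1 parents aged 8 weeks, by superovulation and natural mating, and the sample labels give the strain of the embryos as BDF2. A pool of 3 antisense oligonucleotides (ASOs) against MERVL at 20 µM was injected into the male pronucleus of the MERVL-KD zygotes, and a scrambled ASO was injected into that of the controls, so both groups were microinjected. An ASO is a short synthetic strand that pairs with an RNA and leads to its cleavage. Each library was made of total RNA from 30 pooled zona-free embryos, and each of the 6 groups (control and MERVL-KD embryos at the 2-cell, 4-cell and 8-cell stages) had 2 biological replicates. The stage labels were used as given, although the 4-cell and the 8-cell libraries carry the same age of 2.5 days post coitum against 1.5 for the 2-cell libraries. Whether both groups stood at the same point within a labelled stage was not tested. The paper reports a significant delay in the development of MERVL-KD embryos, and it checked cleavage stages by eye. Later MERVL-KD pools were thus drawn from the embryos that had reached those stages. Whether this bears on differences between stages was not tested.

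Lysine methylation on histone tails is removed by 2 families of enzymes. KDM1A and KDM1B are flavin-dependent amine oxidases, whereas the members with a Jumonji domain use iron and 2-oxoglutarate and can also act on the trimethylated form. KDM1A, KDM1B, KDM5A and KDM5B remove H3K4 methylation, a mark of promoters and enhancers. KDM4A, KDM4B, KDM4C and KDM4D act mainly on H3K9 methylation, a mark of heterochromatin, KDM2B acts on H3K36 methylation and brings a Polycomb complex to CpG islands, and KDM6B acts on the Polycomb mark H3K27me3. In the mouse embryo, several of these enzymes are maternally supplied, and broad H3K4me3 domains inherited from the oocyte are lost around zygotic genome activation.

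Each library held between 28167085 and 41482526 counts. There were no molecular identifiers, and an even count was found in 71.8% to 74.7% of genes with low counts (1 to 50). A sequenced pair was therefore mostly counted as 2 reads, and any precision from counts covers counting error only. MERVL-int, the internal part of the targeted element, fell to a share of 0.157% and 0.143% of counts upon MERVL-KD at the 2-cell stage, against 6.33% and 6.57% in control. It was lower in every MERVL-KD library than in the controls of the same stage, with log2 fold changes of -5.72, -5.53 and -5.40 from the 2-cell to the 8-cell stage. All 8 embryo and oocyte markers, among them Pou5f1, Dppa3 and Gdf9, had at least 62 counts in every library, whereas the 10 markers of cumulus and granulosa cells summed to between 0.795 and 6.41 CPM (counts per 1000000, scaled by TMM, the trimmed mean of M-values), with 1 to 5 of them at 3 counts or fewer in both libraries of a group. The summed embryo markers were lower in MERVL-KD at each stage (1157 and 1186 against 1517 and 1533 CPM in 2-cell embryos, 1576 and 1700.1 against 1821 and 1933 in 4-cell embryos, and 1875 and 2051 against 2457 and 2524 in 8-cell embryos), and the part of this difference in the results below was not tested. Single markers had changes of either sign. Dppa3 had the highest level of the 8 (between 753 and 798 CPM in control 2-cell embryos and between 491 and 514 CPM in MERVL-KD), while the log2 fold changes were negative for 6 of 8 markers at the 2-cell stage, 4 of 8 at the 4-cell stage and 6 of 8 at the 8-cell stage, with medians of -0.17, 0.11 and -0.25. In pooled embryos, fewer cells that carry a transcript and less of that transcript per cell cannot be told apart.

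Kdm5b and Kdm4a led the order of the members in control 2-cell embryos when levels were expressed per length, as RPKM (CPM per kilobase of exon). Kdm4a stood at 35.1 ± 2.24 RPKM (SD, n = 2) and Kdm5b at 33.3 ± 1.94, and their replicates overlapped. Kdm6b followed at 30.2 ± 1.13 and Kdm1b at 20.0 ± 1.79, each apart from its neighbours. Kdm1a, Kdm2b, Kdm5a and Kdm4c lay close together between 10.3 and 11.2 RPKM, and their ranges overlapped except those of Kdm5a and Kdm4c. Kdm4b was low at 3.05 ± 0.018 RPKM, and Kdm4d, known mainly from testis, lowest at 0.696 ± 0.00808.

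By the 8-cell stage Kdm5b ranked first at 29.5 ± 0.894 RPKM and Kdm1a second at 26.2 ± 2.43. Kdm4a, Kdm2b and Kdm4c followed at 23.1 ± 0.238, 21.7 ± 0.630 and 19.5 ± 1.00 RPKM. Kdm6b had dropped to 14.0 ± 0.885 RPKM, within the range of Kdm5a, and Kdm1b to 3.71 ± 0.289. In the 4-cell controls, the ranges of Kdm4c and Kdm4a overlapped, as did those of Kdm4a and Kdm2b, of Kdm4a and Kdm5a, and of Kdm2b and Kdm5a. Kdm4d was near the limit of detection from the 4-cell stage on, with 12 and 4 counts in the 4-cell controls and 2 and 1 in the 8-cell controls.

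**Figure D1:**
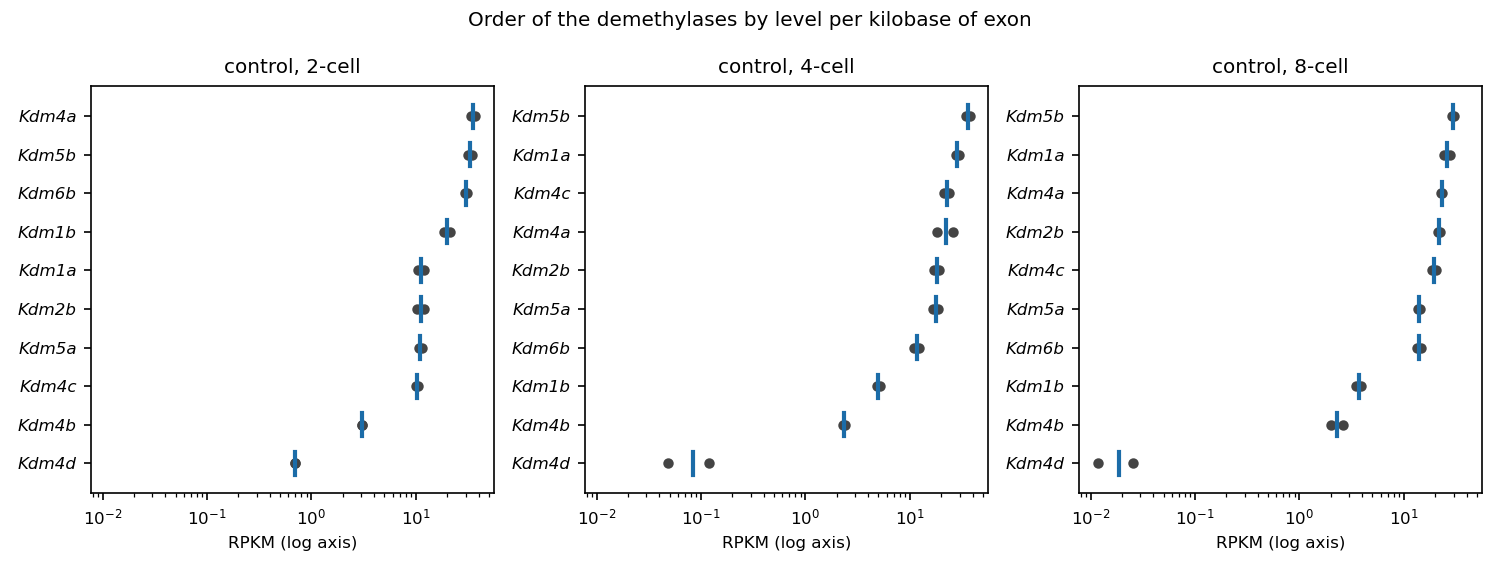
Level of each demethylase in control embryos in RPKM on a log axis, in order of the mean, at the 2-cell, 4-cell and 8-cell stages. Points are the 2 libraries of a stage and the blue bars their mean. Kdm1a moves up from 11.2 RPKM at the 2-cell stage to 26.2 RPKM at the 8-cell stage, Kdm1b and Kdm6b drop, and Kdm4b and Kdm4d are the lowest at all 3 stages.

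Between the 2-cell and the 4-cell stage of control embryos, 2 members rose and 3 fell by at least 2-fold at an adjusted p under 0.05 (edgeR, Benjamini-Hochberg over all genes and repeat families tested). Of all genes tested, 23.3% were called higher and 26.7% lower by this rule, so a change at this step was common. Kdm1a rose by 1.37 ± 0.102 (log2 fold change ± SE, adjusted p = 3.64e-08), from 54.5 and 61.6 to 142 and 153 CPM. Kdm4c rose by 1.15 ± 0.103 (adjusted p = 2.58e-07), from 59.0 and 61.4 to 139.9 and 123 CPM. The controls of both stages were well apart for both genes.

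The members that fell at this step were Kdm1b, Kdm6b and Kdm4d. Kdm1b, which is needed in oocytes to set up maternal imprints, fell by 1.97 ± 0.120 on the log2 scale (adjusted p = 4.33e-09), from 117 and 103 to 26.7 and 28.4 CPM. Its annotated exons share 505 of 5495 bases (9.19%) with Dek on the opposite strand, and the strand setting of the counting is not given in the sources used here. Kdm6b fell by 1.35 ± 0.0911 (adjusted p = 1.27e-08), from 204 and 215 to 77.0 and 84.9 CPM. Kdm4d fell by 2.98 ± 0.712 (adjusted p = 0.00226) on counts of 62 and 73 against 12 and 4. Part of Kdm4d, 948 transcript bases, is 92.2% identical to Kdm4dl, so its counts cover only reads that could be placed uniquely.

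Changes under 2-fold passed the test in another 3 members. Kdm2b and Kdm5a both rose by 0.72 on the log2 scale (SE 0.0927 and 0.0906, adjusted p = 1.12e-05 and 8.56e-06), and Kdm4a fell by 0.65 ± 0.127 (adjusted p = 0.000528). In all, 8 of 10 members passed at an adjusted p under 0.05, against 61.9% of all genes tested. Kdm5b differed by 0.14 (95% interval -0.03 to 0.31, adjusted p = 0.129) and Kdm4b by -0.36 (-0.76 to 0.05, adjusted p = 0.119).

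From the 4-cell to the 8-cell stage, no member was called in control embryos, by edgeR or by DESeq2, where 1.98% of all genes were called in either direction. An unadjusted p under 0.05 was reached by 6 of 10 members, beside 4754 of 21175 genes tested. At an adjusted p under 0.05, 3 members fell, Kdm1b (-0.42 ± 0.121, adjusted p = 0.0461), Kdm5a (-0.34 ± 0.0902, adjusted p = 0.0350) and Kdm5b (-0.28 ± 0.0771, adjusted p = 0.0399), against 3.63% of genes tested that fell. None of these 3 was secure. Kdm1b failed without any 1 of 5 control libraries (adjusted p from 0.0606 to 0.211), Kdm5a without the first 4-cell or either 8-cell library (adjusted p = 0.288, 0.100 and 0.187), and Kdm5b without any 1 of the 4-cell and 8-cell libraries (adjusted p from 0.0926 to 0.237).

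**Figure D2:**
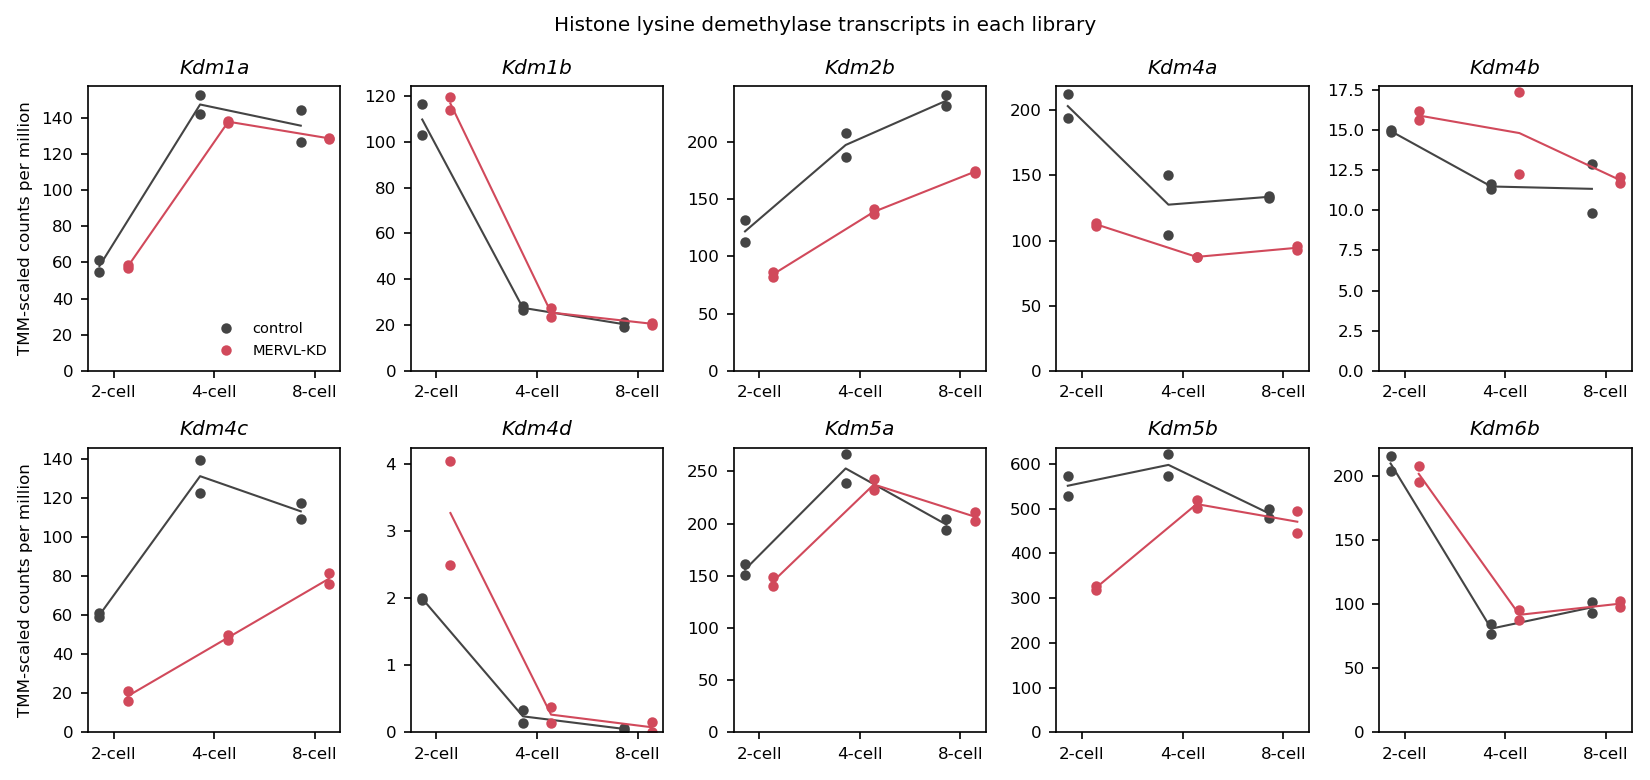
TMM-scaled CPM of the 10 demethylases in every library, control in grey and MERVL-KD in red, at 3 stages, with each y axis starting at 0. Points are single libraries and lines join the means of 2. Kdm4c, Kdm4a and Kdm2b lie lower in MERVL-KD at all 3 stages, and Kdm5b most clearly at the 2-cell stage (328 and 318 against 528 and 574 CPM).

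Kdm4c, an H3K9 and H3K36 demethylase, was the member that changed most upon MERVL-KD. In 2-cell embryos it stood at 59.0 and 61.4 CPM in the controls and at 21.3 and 15.9 CPM in the MERVL-KD libraries. At the 4-cell stage it stood at 139.9 and 123 CPM in control and at 49.96 and 47.4 CPM in MERVL-KD. In 8-cell embryos the values were 109 and 117 CPM against 76.1 and 81.5 CPM. Control and MERVL-KD libraries did not overlap at any stage, but the gap narrowed at the last one. On this TMM scale, the level of MERVL-KD embryos at the 4-cell stage was still under that of control embryos at the 2-cell stage, in both libraries. This order across stages depends on the scaling and was not tested.

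Kdm4c had a fitted change of -1.61 ± 0.143 at the 2-cell stage (3.05-fold lower, adjusted p = 2.15e-06) and -1.43 ± 0.111 at the 4-cell stage (2.69-fold lower, adjusted p = 1.10e-05). It was the 1 member called at both stages, where 2.24% and 1.88% of all genes were called lower. Of the genes tested at the 2-cell stage, 1.91% had a lower log2 fold change. At the 8-cell stage the change was -0.52 ± 0.100 (adjusted p = 0.0130), below the 2-fold threshold. Without the second 8-cell control the 8-cell change was -0.46 (adjusted p = 0.0734). At the 2-cell and 4-cell stages Kdm4c was called in all 12 alternatives, with log2 fold changes from -1.85 to -1.32 and from -1.53 to -1.33.

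The decrease of Kdm4c was smaller at the 8-cell stage than before, in pools of the MERVL-KD embryos that had reached that stage. In one fit of all 12 libraries, its MERVL-KD effect differed by 1.17 ± 0.179 on the log2 scale between the 8-cell and the 2-cell stage (adjusted p = 0.000557), and by 0.91 ± 0.177 between the 8-cell and the 4-cell stage (adjusted p = 0.0193). By this test 4.03% and 0.624% of all genes differed. The difference between the 8-cell and the 4-cell stage was not past the threshold without the first 4-cell control (0.81, adjusted p = 0.0793) or the first 8-cell control (0.88, adjusted p = 0.0635). Between the 4-cell and the 2-cell stage the effects differed by 0.26 (95% interval -0.11 to 0.63, adjusted p = 0.503).

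Kdm4a, a close relative of Kdm4c with the same substrates, was lower at all 3 stages, as Kdm4c was. Its fitted change was smaller than that of Kdm4c at the 2-cell and 4-cell stages and near it at the 8-cell stage. Its 2-cell values were 194 and 212 CPM in control and 114 and 111 CPM in MERVL-KD, a change of -0.77 ± 0.0878 (adjusted p = 2.46e-05). In 8-cell embryos they were 135 and 133 CPM against 96.0 and 92.9 CPM, a change of -0.49 ± 0.0933 (adjusted p = 0.0117). The 4-cell controls were wide apart, at 105 and 151 CPM, both above the 87.2 and 87.7 CPM of the MERVL-KD libraries.

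The 4-cell change of Kdm4a was -0.54 ± 0.148 (adjusted p = 0.0427), and it rested on the second control library, without which it was -0.26 (adjusted p = 0.463). It also failed without the first or the second MERVL-KD library (adjusted p = 0.338 and 0.365), and the 8-cell change failed without the first 8-cell control (-0.47, adjusted p = 0.0563). At the 2-cell stage Kdm4a passed in all 12 alternatives.

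No fall was found in the other members of the family, Kdm4b and Kdm4d. Kdm4b stood at 15.0 and 14.9 CPM in the 2-cell controls and at 16.2 and 15.6 CPM in MERVL-KD, a difference of 0.17 (95% interval -0.16 to 0.51, adjusted p = 0.535). Its difference was 0.37 (-0.09 to 0.84, adjusted p = 0.310) at the 4-cell stage and 0.08 (-0.36 to 0.52, adjusted p = 0.894) at the 8-cell stage. Kdm4d had 62 and 73 counts in the 2-cell controls and 105 and 143 in the MERVL-KD libraries. That is a difference of 0.79 ± 0.337 with an adjusted p = 0.142. With a library left out, the 2-cell difference of Kdm4d ran from 0.40 to 1.09. Its 4-cell difference was 0.14 with an interval from -2.28 to 2.55, on counts of 4 to 14. At the 8-cell stage its counts of 0 to 6 fell under the filter, so 9 of 10 members were tested there.

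Among the members that are H3K4 demethylases, Kdm5b fell at the 2-cell stage. Kdm5b, also known for removing the broad H3K4me3 domains of the early embryo, stood at 528 and 574 CPM in the 2-cell controls and at 328 and 318 CPM in MERVL-KD. The fitted change was -0.69 ± 0.0790 (1.61-fold lower, adjusted p = 2.69e-05). At the 4-cell stage the levels were 574 and 621 against 520 and 500.1 CPM, a difference of -0.22 (95% interval -0.41 to -0.04, adjusted p = 0.128). In 8-cell embryos they overlapped, at 499.5 and 479 against 446 and 495 CPM (-0.05, -0.23 to 0.13, adjusted p = 0.826).

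The loss of the Kdm5b difference was itself tested. Its MERVL-KD effect differed by 0.71 ± 0.127 between the 8-cell and the 2-cell stage (adjusted p = 0.00224), and this held with each of the 12 libraries left out. It differed by 0.54 ± 0.127 between the 4-cell and the 2-cell stage (adjusted p = 0.0172), where 4.16% of all genes differed. The latter failed without any 1 of the libraries second 2-cell control, first 4-cell control, first and second 8-cell control, first and second 2-cell MERVL-KD and second 4-cell MERVL-KD, with values from 0.42 to 0.56 and adjusted p from 0.0532 to 0.110.

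The other H3K4 demethylases among the members showed no difference past the threshold at any stage. Kdm5a, the paralog of Kdm5b, stood at 151 and 161 CPM in the 2-cell controls and at 140.3 and 149 CPM in MERVL-KD (-0.02, 95% interval -0.21 to 0.16, adjusted p = 0.905). Kdm1a, part of the CoREST complex, stood at 54.5 and 61.6 against 58.5 and 56.8 CPM (0.08, -0.15 to 0.30, adjusted p = 0.723). The largest differences of Kdm1a, Kdm1b and Kdm5a over the 3 stages were -0.09, 0.17 and -0.08, and every 95% interval of these genes lay between -0.44 and 0.38.

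Kdm2b, the Polycomb-associated member, fell by a like amount at each stage. It stood at 112 and 131 CPM in the 2-cell controls against 86.6 and 82.0 CPM in MERVL-KD (-0.44 ± 0.0981, adjusted p = 0.00621). The 4-cell levels were 187 and 207 against 141 and 137 CPM (-0.50 ± 0.0958, adjusted p = 0.00663). In 8-cell embryos they were 240.5 and 231 against 173 and 174 CPM (-0.43 ± 0.0842, adjusted p = 0.0132). Each of these was under 2-fold and lost its adjusted p when 1 control library was left out, the second at the 2-cell stage (-0.35, adjusted p = 0.0548), the second at the 4-cell stage (-0.43, adjusted p = 0.0805) and the first at the 8-cell stage (-0.40, adjusted p = 0.0985). Kdm2b shares 627 of its 10869 exonic bases (5.77%) with Rnf34 on the opposite strand.

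Kdm6b, the H3K27 demethylase among the members, did not differ past the threshold at any stage. Its 2-cell levels were 204 and 215 CPM in control and 195 and 208 CPM in MERVL-KD (0.03, 95% interval -0.15 to 0.21, adjusted p = 0.886). The later differences were 0.19 (-0.05 to 0.42) and 0.05 (-0.17 to 0.27). In MERVL-KD embryos its 4-cell levels were 95.9 and 87.6 CPM, as in control far under the 2-cell levels.

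**Figure D3:**
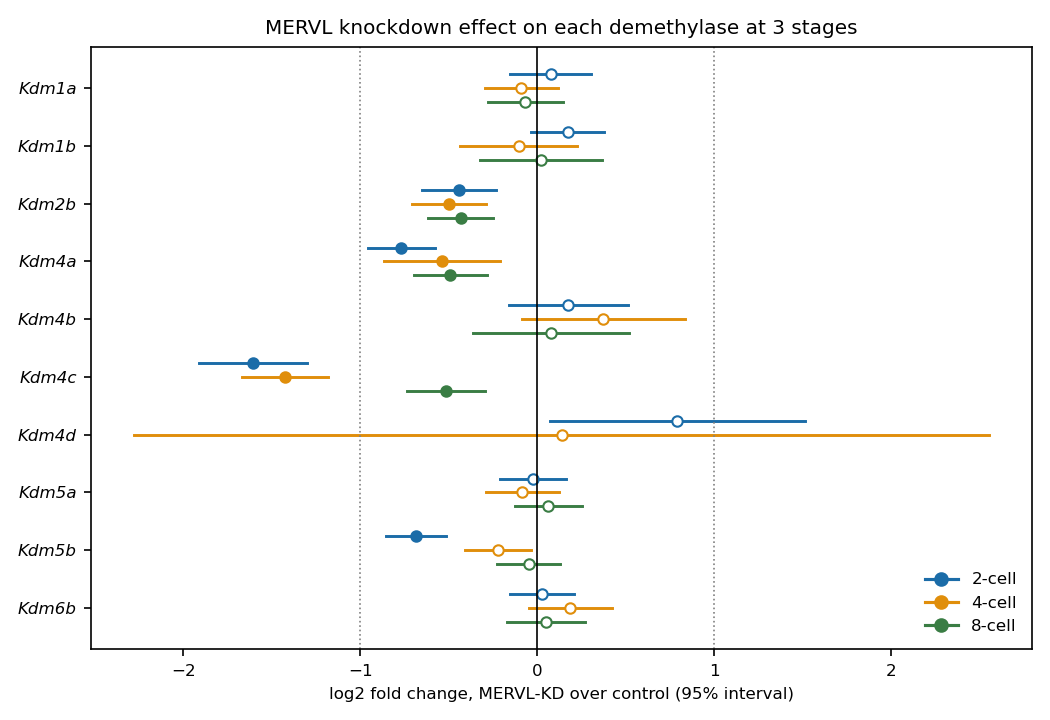
Log2 fold change of each demethylase in MERVL-KD over control with its 95% interval, at the 2-cell, 4-cell and 8-cell stages. Filled points have an adjusted p under 0.05 and dotted lines mark a 2-fold change. Kdm4c lies beyond the line at -1.61 and -1.43 at the first 2 stages, Kdm4a and Kdm2b lie between 0 and the line, and Kdm4d at the 4-cell stage has the widest interval.

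Counted over the members, 4 of 10 fell at the 2-cell stage at an adjusted p under 0.05 (Kdm4c, Kdm4a, Kdm5b and Kdm2b), where 7.39% of all genes fell. At the 4-cell and 8-cell stages 3 of 10 and 3 of 9 fell (Kdm4c, Kdm4a and Kdm2b), against 5.84% and 3.56% of all genes. No member rose at this threshold at any stage, by edgeR or DESeq2, against 6.70%, 4.92% and 1.50% of all genes, and 1 member, Kdm4d at the 2-cell stage, had an unadjusted p under 0.05 in that direction. At 2-fold, 4.37%, 2.66% and 0.641% of all genes were called higher. No member was called in 8-cell embryos by edgeR or DESeq2, where 1.06% of all genes were called lower. There 3 of 9 had an unadjusted p under 0.05, beside 3582 of 18414 genes tested. The median log2 fold change of the members was 0.00, -0.10 and -0.05 at the 3 stages, beside 0.01, 0.03 and 0.01 over all genes tested. The decreases were thus those of 3 or 4 genes and not of the members as a whole.

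The count at the 2-cell stage depended on the scaling. MERVL-int took 6.33% and 6.57% of the counts in the 2-cell controls, and 1.07% and 1.08% in the 8-cell controls. Its part in the shifts between scalings was not tested. After TMM the median log2 fold change of all genes was 0.01 in 2-cell and in 8-cell embryos. Scaling by library size alone put it at 0.30 and 0.13. On that scale 1710 of 2004 genes called in 2-cell embryos were higher (85.3%), against 900 of 1362 (66.1%) after TMM. In 8-cell embryos the numbers were 197 of 352 (56.0%) against 118 of 313 (37.7%). Kdm4c, Kdm4a and Kdm5b were lower at the 2-cell stage on either scale (-1.32, -0.48 and -0.40 by library size alone), while Kdm2b was at -0.15 (adjusted p = 0.262). The other 6 members then passed the threshold in the other direction, with Kdm4d at 1.08, Kdm4b and Kdm1b at 0.46, Kdm1a at 0.36, Kdm6b at 0.32 and Kdm5a at 0.26, beside the median of 0.30 over all genes. On the same scale Kdm4a was at -0.48 at the 4-cell stage (adjusted p = 0.0786), Kdm4a and Kdm2b were at -0.36 and -0.30 in 8-cell embryos (adjusted p = 0.0576 and 0.0630), and the Kdm5b effect of the 4-cell minus the 2-cell stage was at 0.24 (adjusted p = 0.284).

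**Figure D4:**
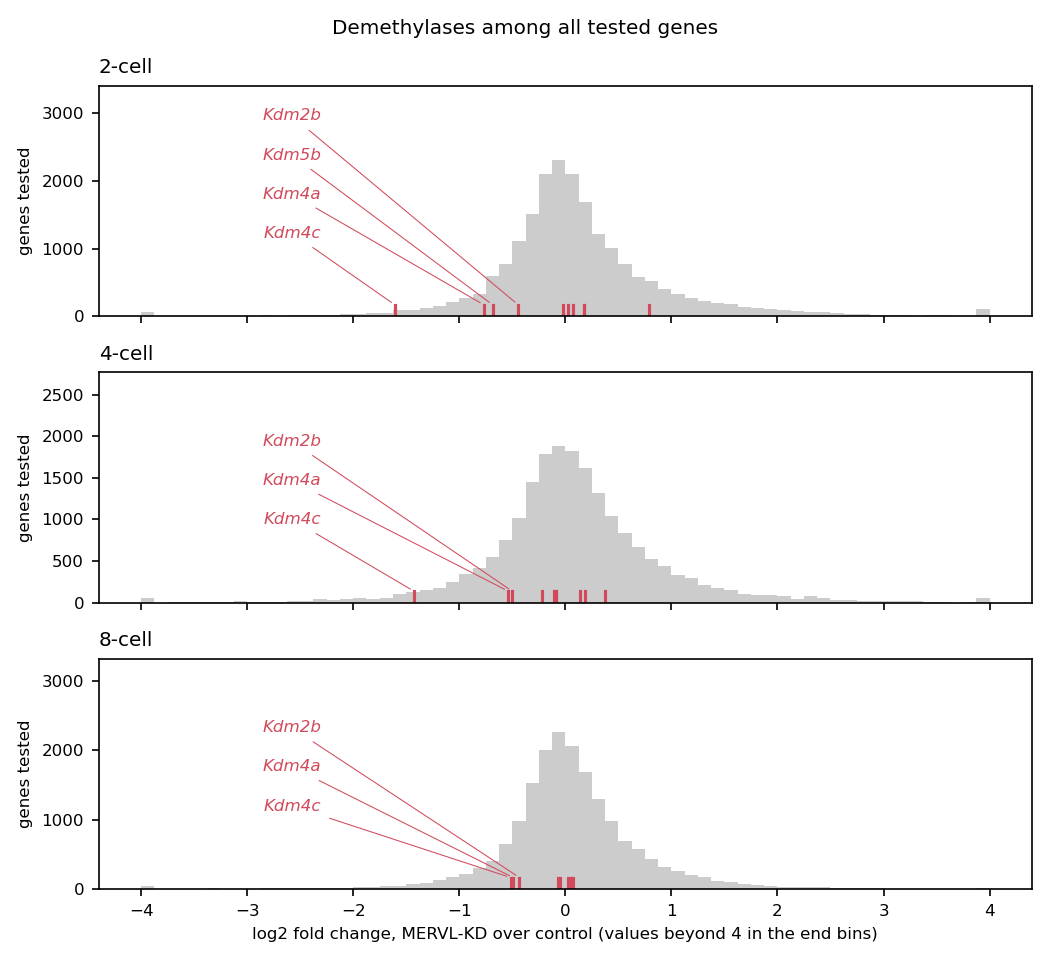
Number of genes tested in bins of log2 fold change, MERVL-KD over control, at each stage, with values beyond 4 in the end bins. Red marks are the demethylases, named where the adjusted p was under 0.05. Kdm4c lies in the lower tail at the 2-cell and 4-cell stages and near Kdm4a and Kdm2b at the 8-cell stage.

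The oligonucleotides were compared with the sequence of the members, because an ASO could also pair with another transcript. The 3 MERVL ASOs are shown because they are the agent of the knockdown, 5′ to 3′:
MERVL-ASO1: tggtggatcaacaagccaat
MERVL-ASO2: catttgtctgtttaccacga
MERVL-ASO3: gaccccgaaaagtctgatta
With up to 2 mismatches, 0 of 10 members held a site for any of them in the transcribed strand of exons or introns, and with up to 4 mismatches the number was still 0. Of all 55291 genes, 176 (0.318%) held a site with up to 2 mismatches. The nearest match within any member lay in an intron of Kdm4c, at chr4:74245381-74245400 (GRCm38) on the strand opposite to the gene. It is given here beside the target of MERVL-ASO1, with its 4 mismatches in capitals:
Target of MERVL-ASO1: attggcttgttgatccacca
Intron of Kdm4c: attggcttCttCatTcacTa

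MERVL copies that the ASOs match lay near some of the members. Kdm4c (chr4:74242497-74405860, plus strand) had a perfect site for MERVL-ASO1 29.3 kb beyond its 3′ end, at chr4:74435189-74435208, on the same strand and in no annotated gene. Kdm4d had a perfect site for the same ASO at 37.3 kb, on its own strand. Of all genes 4.46% had a site with up to 2 mismatches within 50 kb, counting both strands. Kdm2b, Kdm4a and Kdm5b had their nearest sites at 222, 315 and 434 kb, all for MERVL-ASO3, and 29.8% of all genes had one within 500 kb. For the other 5 members the nearest site was between 743 and 6876 kb away. All 4 members that fell had a site within 500 kb, as did Kdm4d, which did not fall. Whether the distance to a site bears on these decreases was not tested. The paper compared annotated genes by distance to full-length MERVL at the earliest stage and reports no significant difference. For unannotated transcripts beside full-length MERVL it reports significantly lower levels upon MERVL-KD, the more so the closer they lay.

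The other known or proposed histone lysine demethylases, 14 genes that are not members, were set beside them. None of them was called at any stage in MERVL-KD by edgeR or DESeq2, and 8, 6 and 3 of 14 had an unadjusted p under 0.05 at the 2-cell, 4-cell and 8-cell stages. Of all genes tested by edgeR, 5556 of 20604, 4948 of 19738 and 3582 of 18414 had one. At an adjusted p under 0.05, 4 of 14 fell and 3 rose in 2-cell embryos, beside 7.39% and 6.70% of all genes. These 7 were singled out after their values were seen. Those that fell were the H3K27 demethylase Kdm6a (from 225 and 233 to 112 and 146 CPM, -0.75 ± 0.109, adjusted p = 0.000259), its Y-linked relative Uty (-0.71), the H3K9 demethylase Phf8 (-0.41) and the H3K4 demethylase Kdm5c (-0.35). The share of male embryos in each pool, which bears on a Y-linked gene, is not given in the sources used here.

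Those that rose were Kdm3b (0.44), Kdm2a (0.44) and Jmjd1c (0.43). Kdm2a, which like Kdm2b acts on H3K36, thus differed in sign from Kdm2b, and it also rose at the 4-cell stage (0.53 ± 0.104, adjusted p = 0.00772). The median over the 14 genes was -0.24, -0.04 and 0.00 over the 3 stages, beside the all-gene medians of 0.01, 0.03 and 0.01.

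Over normal cleavage, from the 2-cell to the 4-cell stage of control embryos, 2 of these 14 genes were called higher and 4 lower, beside 23.3% and 26.7% of all genes. The H3K9 demethylase Kdm3b rose by 2.18 ± 0.101 (adjusted p = 2.97e-10), and Riox2, a Jumonji enzyme of the nucleolus, by 1.20 ± 0.130 (adjusted p = 1.93e-06). Those that fell were Phf2 (-3.00 ± 0.207, adjusted p = 1.58e-08), Phf8 (-1.95 ± 0.112, adjusted p = 2.37e-09), Uty (-1.26 ± 0.357, adjusted p = 0.00843) and Kdm7a (-1.003 ± 0.0875, adjusted p = 1.97e-07). The Y-linked Uty stood at 4.25 and 8.89 CPM in the 4-cell controls, in pools of unstated sex. From the 4-cell to the 8-cell stage none of the 14 was called by edgeR or DESeq2, with 5 at an unadjusted p under 0.05, beside 4754 of 21175 genes tested.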

How the data were processed

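Total RNA of mouse embryos was sequenced as stranded, 150-base paired-end libraries. Reads were aligned by the authors to GRCm38 with STAR 2.5.3a, and unique alignments were assigned to GENCODE genes and RepeatMasker families by featureCounts. The deposited values are raw counts. The other columns give each feature's position and length. The strand setting is not given in the sources used here. ATAC-seq libraries and MERVLi libraries were not analysed here. Groups and replicate numbers followed the labels.

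From the 12 libraries, log2 fold changes were computed with edgeR 4.0.16 in R 4.3.3 (filterByExpr, TMM, robust quasi-likelihood test, two-sided). Control and MERVL-KD were fitted stage by stage, control stages in a fit of 6 libraries, and differences between stages as interaction contrasts in a fit of 12. Adjustment was by Benjamini-Hochberg, with repeat families included. A call needed both an adjusted p under 0.05 and a 2-fold change, and percentages are over genes alone. CPM and RPKM used TMM-scaled totals and the length column. Replicates were distinct, with chi-square values of 14.7 to 25.8 per degree of freedom. Alternatives were DESeq2 1.42.0, other scalings and filters, counts halved and rounded up, all libraries in one fit, the replicate number as a block, and each library left out. Both strands of GRCm38 were searched for ASO sites, allowing 2 mismatches or, as an alternative, 4. The fits were tested on simulated data. Named genes are all members, and of the other lists those called in the comparison described. The other genes named with values were singled out after their values were seen. The members, lists, tests and alternatives were chosen with earlier results of these data known.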

Additional observations from a re-analysis of the deposited data

Results flagged for a closer look

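A pair of members had a MERVL-KD effect that differed between stages by a test of the difference itself, in one edgeR fit of 12 libraries. The effect on Kdm4c was less negative at the 8-cell stage than at the 2-cell stage by 1.17 on the log2 scale (adjusted p = 0.000557), and than at the 4-cell stage by 0.91 (adjusted p = 0.0193). The effect on Kdm5b was less negative by 0.54 at the 4-cell stage (adjusted p = 0.0172) and by 0.71 at the 8-cell stage (adjusted p = 0.00224), each against the 2-cell stage. The causes were not tested, nor was any part of the developmental delay that the paper reports for MERVL-KD embryos. The other 8 members passed in none of the 3 tests between stages.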

How the results depend on the processing

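The call of Kdm4c at the 2-cell and 4-cell stages held in all alternatives run, as did the 5 calls between the control 2-cell and 4-cell stages with each library left out. Scaled by library size alone, 2 members were called at the 2-cell stage (Kdm4c lower, Kdm4d higher), 9 had an adjusted p under 0.05, 1 had it at the 8-cell stage, and 0 differed in effect between the 4-cell and the 2-cell stage. With a library left out, where the single remaining library is assumed to vary like the other group, members called at the 2-cell stage numbered from 1 to 2. At an adjusted p under 0.05 there were 3 to 5 members in 2-cell embryos and 1 to 3 in each later stage. Members whose effect differed numbered from 0 to 1 for the 4-cell against the 2-cell and for the 8-cell against the 4-cell stage. Values near 0 changed sign. In one fit of all libraries Kdm1a and Kdm6b at the 2-cell stage were at -0.0095 and -0.057. By library size alone, Kdm5a at the 2-cell stage was at 0.26, Kdm1a and Kdm5b at the 8-cell stage at 0.058 and 0.078, Kdm4a between the control 4-cell and 8-cell stages at -0.14, and the Kdm4c effect of the 4-cell minus the 2-cell stage at -0.044. Kdm4b between the control 4-cell and 8-cell stages was at 0.017 with DESeq2 and with its size factors. With a library left out, Kdm1a, Kdm5a and Kdm6b at the 2-cell stage ran from -0.014 to 0.14, from -0.075 to 0.0056 and from -0.025 to 0.057. Kdm1b and Kdm4d at the 4-cell stage ran from -0.24 to 0.0081 and from -0.71 to 0.92. At the 8-cell stage Kdm1a ran from -0.15 to 0.031, Kdm1b from -0.055 to 0.11, Kdm4b from -0.10 to 0.29, Kdm5b from -0.12 to 0.022 and Kdm6b from -0.011 to 0.12. Between the control 4-cell and 8-cell stages Kdm4a ran from -0.14 to 0.35 and Kdm4b from -0.24 to 0.15. The causes were not tested. Replicate numbers did not pair the libraries (correlations of -0.014, -0.00057 and 0.0066), and with the replicate block 1, 1 and 0 members were called in MERVL-KD at the 3 stages, with 4, 3 and 3 at an adjusted p under 0.05. It left the counts of the other comparisons at 5 and 0 called, and at 1, 1 and 2 that differed. With 2 libraries a group and no molecular identifiers, small changes of Kdm4d and Kdm4b could not be resolved at this depth.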

Other observations

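The enzymes that place the marks were also examined, in lists by substrate. Of 23 histone lysine methyltransferases none was called in MERVL-KD at any stage by edgeR or DESeq2, with 6, 7 and 8 at an unadjusted p under 0.05 at the 3 stages. Among all genes tested by edgeR, 5556 of 20604, 4948 of 19738 and 3582 of 18414 had one. At an adjusted p under 0.05 edgeR found only decreases, 1 of 9 for H3K4, 1 of 6 for H3K9, 0 of 2 for H3K27 and 1 of 6 for H3K36 in 2-cell embryos, and 2 of 9, 0 of 6, 0 of 2 and 2 of 6 in 4-cell embryos, where 7.39% and 5.84% of all genes fell past that threshold at the 2-cell and the 4-cell stage. In 8-cell embryos none passed by edgeR, and 3 of 23 fell by DESeq2. The H3K36 methyltransferase Nsd1, singled out after its values were seen, fell by 0.48 ± 0.0753 at the 2-cell stage (adjusted p = 0.000432) and by 0.67 ± 0.0862 at the 4-cell stage (adjusted p = 0.000575). List medians for H3K4, H3K9, H3K27 and H3K36 were -0.01, 0.09, -0.15 and -0.02 at the 2-cell stage (0.01 over all genes), -0.28, -0.09, -0.26 and -0.23 at the 4-cell stage (0.03), and -0.05, -0.06, 0.06 and 0.15 at the 8-cell stage (0.01).

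In control embryos from the 2-cell to the 4-cell stage, H3K9 methyltransferases moved in both directions. Ehmt2 (3.67 ± 0.123, adjusted p = 1.86e-11) and Ehmt1 (1.32 ± 0.0927, adjusted p = 2.02e-08), which form one enzyme that places H3K9me1 and H3K9me2, rose, whereas Suv39h2 (-2.38) and Suv39h1 (-1.30), which place H3K9me3, fell. The H3K4 methyltransferases Kmt2d (-1.98), Smyd3 (-1.15) and Kmt2b (-1.03) fell, and none of the 9 rose. Of the H3K36 methyltransferases, Smyd2 rose (3.33 ± 0.436) from 0.275 and 0.382 CPM and Nsd2 fell (-2.02).

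Of 11 genes whose products work with the demethylases, Bcor, a Polycomb partner of KDM2B, was the 1 called in MERVL-KD at any stage. It rose at the 2-cell stage from 47.9 and 64.8 to 115 and 119 CPM (1.14 ± 0.120, adjusted p = 1.29e-05), while Kdm2b fell. Without the first control 2-cell library the change was 0.93, under the 2-fold threshold. The Bcor levels overlapped at the 4-cell stage (101 and 102 CPM in control, 74.3 and 112 in MERVL-KD, -0.12, adjusted p = 0.742). At the 8-cell stage they were 103 and 112 CPM in control and 53.9 and 87.2 in MERVL-KD (-0.60 ± 0.195, adjusted p = 0.131). With a library left out, the 8-cell change of Bcor ran from -0.99 to -0.30. Its effect at the 8-cell stage minus that at the 2-cell stage was -1.66 ± 0.342 (adjusted p = 0.0255), and this lost significance on leaving out any 1 of 8 of the 12 libraries, namely each control library and each 2-cell MERVL-KD library (adjusted p from 0.000438 to 0.159 over all 12). Hdac1, singled out after its values were seen and a deacetylase of the CoREST complex with KDM1A, fell at all 3 stages, by 0.55, 0.66 and 0.52 on the log2 scale (adjusted p = 0.000633, 0.000722 and 0.0125). Of the partner list 5, 4 and 2 of 11 fell at an adjusted p under 0.05 at the 3 stages, beside 7.39%, 5.84% and 3.56% of all genes, with medians of -0.27, -0.12 and -0.17.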
